A study of Mus musculus with 12 samples.

Results

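The nuclear genes for the subunits of the mitochondrial respiratory chain were followed through mouse ependymomas and mouse cortex by RNA sequencing. The genes were chosen by symbol, as every row of the deposited tables that begins with Ndufa, Ndufb, Ndufc, Ndufs, Ndufv, Uqcr, Cox4 to Cox8 or Atp5, or is Sdha, Sdhb, Sdhc or Sdhd. This rule found 92 of 24421 genes: 36 subunits of complex I, 7 complex I assembly factors (Ndufaf), 4 subunits of complex II, 8 of complex III, 19 of complex IV (with Ndufa4 and its paralogue Ndufa4l2), 15 of complex V, the supercomplex factor Cox7a2l, and Atp5s and Atp5sl. Of these 12 libraries of polyA RNA, 3 were ZFTA-RELA ependymomas with overexpression labelled as human variant ETV5 (ETV5 tumours), 3 were ZFTA-RELA ependymomas with overexpression labelled as human variant NPY (NPY tumours), 3 were ZFTA-RELA ependymomas with no further gene named (control tumours), and 3 were wild-type non-tumour cortex (cortex). All 9 tumour libraries carried ZFTA-RELA, a fusion that acts as a transcription regulator in ependymoma. ETV5 is a transcription factor of the ETS family and NPY encodes neuropeptide Y. Both added genes were labelled human, and reads at mouse Etv5 and Npy were not used here as a measure of them. The labels give no age, no promoter and no source cell for the tumours, and do not say that replicates are separate animals, so p-values measure only the spread between these samples.

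The respiratory chain lies in the inner mitochondrial membrane. Complexes I and II pass electrons from NADH and succinate to coenzyme Q, complex III passes them on to cytochrome c, complex IV hands them to oxygen, and the proton gradient built on the way drives ATP synthesis by complex V. Most subunits are encoded in the nucleus and a few core ones in mitochondrial DNA, and neurons are known for a high demand on this pathway. The 13 subunit genes of mitochondrial DNA are not analysed here.

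Depth was 6266613 to 11291057 reads in the 9 tumour libraries and 5962376 to 7444467 in the 3 cortex libraries. Levels below are normalised RPM, which are whole reads per gene divided by a median-of-ratios size factor per library and scaled so that the mean library total is 1000000. Of the 92 genes, 88 passed the filter on low reads and were tested in each comparison. Cox7b2 and Cox8b had 22 and 39 reads over the 12 libraries, Ndufs5 had 2 and Cox8c had 0, and these 4 were not tested. Ndufs5, a small subunit of complex I, has a pseudogene whose sequence is 99.4% identical, and whether this bears on its 2 reads was not tested. In all, 11 of 91 genes with a transcript in the reference had another gene at 95% identity or more over at least 50% of their length, up to 9 for Atp5l. These were Atp5c1, Atp5g2, Atp5h, Atp5k, Atp5l, Cox7c, Ndufb11, Ndufs3, Ndufs5, Ndufs6 and Uqcrb. The treatment of such shared reads by the authors is not known, so the values of all 11 are uncertain in that respect. The exons of 18 genes overlap those of another coding gene, among them Ndufb11, Ndufa2, Ndufb6, Uqcrc2, Atp5a1, Cox6a2 and Ndufa4l2, and whether reads were counted by strand is likewise not known.

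Per kilobase of exon, Cox6a1 was the most abundant of 91 genes with a known length in all 3 tumour groups. This subunit of complex IV averaged 763 normalised RPM per kilobase in ETV5 tumours, 952 in NPY tumours, 848 in control tumours and 708 in cortex. Cox4i1, the common form of a subunit that binds ATP as a regulator, averaged 566 in ETV5 tumours, 593 in NPY tumours, 647 in control tumours and 951 in cortex on the same scale. The median of 14 complex V subunits with a known length stood at 221, 294, 254 and 268 per kilobase in ETV5 tumours, NPY tumours, control tumours and cortex, and that of 36 complex I subunits at 82.02, 104, 82.7 and 95.03. Assembly factors of complex I were far less abundant, with medians of 10.1, 13.2, 11.8 and 13.1 per kilobase. At the low end of the expressed genes stood forms known from other tissues: Cox6a2 of heart and skeletal muscle, Cox6b2 of testis, and Ndufa4l2, which hypoxia induces.

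Promoters were read because ETV5 is an ETS factor and because ETS factors and NRF1 are known regulators of these genes. In the RefSeq promoters of GRCm38.p6 (the mm10 assembly), 76 of the 92 genes matched and had 82 promoters between them, each from 250 bases before the start to 50 after it. The ETS letters CCGGAAG, searched on both strands, stood in 20.7% of those 82 and in 8.86% of all 32851 promoters. The NRF1 letters GCGCATGC stood in 14.6% and 2.71%, the YY1 letters AAGATGGC in 14.6% and 2.75%, and the HIF core ACGTG in 26.8% and 19.6%, each on both strands. None of these strings contains another on either strand. A match describes the letters and is not a measured binding site. The 250 bases before the start are shown for 3 genes, 5′ to 3′ on the strand of the gene, with ETS and NRF1 letters in capitals. Ndufb6, a complex I subunit with ETS letters, was higher in control and in ETV5 tumours than in cortex, and was not called between ETV5 and control tumours. Uqcr11, a small complex III subunit with ETS letters, was lower in control and in ETV5 tumours than in cortex. Uqcr11 also has NRF1 letters in its promoter window, not wholly within the bases shown. Cox6a1 shows both kinds of letters, the NRF1 ones on both strands in overlap, and was the most abundant of these genes per kilobase in tumours.
Ndufb6 chr4:40279422-40279671, minus strand: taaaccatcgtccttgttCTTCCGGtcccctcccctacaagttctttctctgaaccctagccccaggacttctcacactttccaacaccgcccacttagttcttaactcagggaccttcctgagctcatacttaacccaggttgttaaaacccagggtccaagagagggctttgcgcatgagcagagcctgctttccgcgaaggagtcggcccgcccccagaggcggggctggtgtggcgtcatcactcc
Uqcr11 chr10:80406822-80407071, minus strand: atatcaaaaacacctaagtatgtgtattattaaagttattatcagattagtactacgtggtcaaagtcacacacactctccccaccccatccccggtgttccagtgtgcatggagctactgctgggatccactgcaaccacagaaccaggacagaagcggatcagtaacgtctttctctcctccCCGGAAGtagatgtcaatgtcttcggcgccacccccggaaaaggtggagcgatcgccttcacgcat
Cox6a1 chr5:115348959-115349208, minus strand: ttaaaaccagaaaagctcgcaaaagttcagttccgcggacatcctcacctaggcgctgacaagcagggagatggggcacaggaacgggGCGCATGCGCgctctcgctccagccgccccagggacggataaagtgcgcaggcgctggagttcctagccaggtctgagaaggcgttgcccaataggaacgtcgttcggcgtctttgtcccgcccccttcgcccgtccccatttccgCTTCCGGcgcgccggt

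The first comparison set control tumours beside cortex and asks how the chain differs between tumour and non-tumour tissue. Of the 88 genes tested, 10 were higher, 32 were lower and 46 did not pass (limma, adjusted p under 0.05). Across all 14621 genes tested, 35.7% were called higher and 36.2% lower, so the 32 of 88 members that fell are a share near that background. The genes that rose were 5 accessory subunits of complex I, 3 small subunits of complex V (Atp5e, Atp5g2 and Atp5j2), and Cox7a1 and Ndufa4l2, tissue forms of low abundance. Of a list of 20 subunits treated here as core, 11 fell and 0 rose. Among those that fell were Ndufs1, Sdha, Uqcrc2, Cox4i1 and Atp5b. The list was chosen with earlier results of these data known. It held Cox4i1, Cox5a and Cox5b but not Atp5e or Atp5g2, so the 0 depends on its make-up. The median log2 fold change was -0.19 over the 88 genes and -0.00 over all genes tested. Every control tumour library stood above every cortex library for 15 of the 88 genes and below it for 38, against 36.9% and 40.5% of all genes tested. In bulk tissue, fewer cells of a type and less RNA per cell cannot be told apart.

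**Figure D1:**
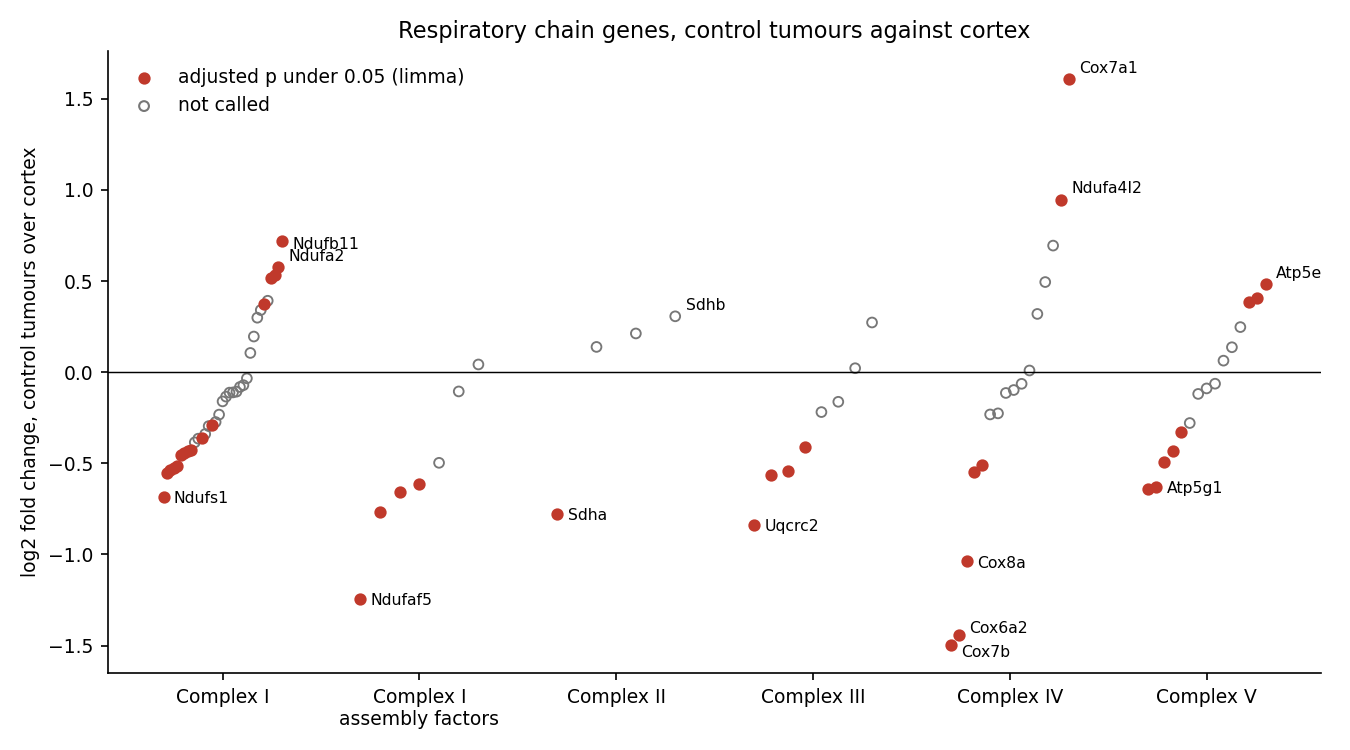
Log2 fold change of control tumours over cortex (y axis) for the tested genes of each complex and for the complex I assembly factors (x axis), ordered by value within a column, with Cox7a2l, Atp5s and Atp5sl left out. Filled points have an adjusted p under 0.05 in limma, and Cox7a1 at 1.61 and Cox7b at -1.50 lie at the ends.

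These counts move with the scaling. When reads were instead scaled to the total of each library, a choice made after seeing the data, the median of all genes moved to 0.17, and 19 members were called higher and 22 lower, with 44 positive and 44 negative values and a median of -0.02. Called in the same direction by limma on deposited, TMM and total-read scaling, by edgeR and by DESeq2 were 9 genes that rose (Atp5e, Atp5g2, Atp5j2, Cox7a1, Ndufa2, Ndufb11, Ndufb4, Ndufb6 and Ndufc2) and 22 that fell (Atp5a1, Atp5b, Atp5d, Atp5g1, Atp5s, Cox4i1, Cox6a2, Cox6b1, Cox7a2l, Cox7b, Cox8a, Ndufa5, Ndufa8, Ndufaf4, Ndufaf5, Ndufaf7, Ndufb8, Ndufs1, Ndufv1, Sdha, Uqcrc2 and Uqcrfs1). Without cortex replicate 1, 4 genes were called higher. Length went with the direction: 41 tested genes with exons under 1000 bases had 9 called higher and 8 lower, and 46 of 1000 bases or more had 1 and 24, with medians of -0.10 and -0.37. Over all genes tested the medians were 0.44 for 475 genes under 1000 bases and -0.01 for 13161 longer ones, and the part of RNA length in the counts was not tested.

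In complex I, which has 35 tested subunits, 5 were higher (14.3%) and 11 lower (31.4%) in control tumours. Both shares are below the 35.7% and 36.2% of all genes tested. Ndufb11, an accessory subunit of the membrane arm encoded at chromosome X, 20615326 to 20617619, minus strand (mm10), stood at 213, 177 and 196 normalised RPM in control tumours and 115, 122 and 130.2 in cortex. All control tumour libraries lay above all cortex libraries, and the level was 1.65-fold higher (log2 fold change 0.72, SE 0.11, adjusted p = 0.00046, limma). Ndufa2, an accessory subunit with a thioredoxin-like fold, read 169.7, 139 and 147 in control tumours against 97.5, 107 and 110.4 in cortex (log2 fold change 0.58, SE 0.12, adjusted p = 0.00201, limma). Ndufb4, of the same membrane arm, had 139, 98.2 and 132 in control tumours and 78.8, 91.5 and 91.00 in cortex (log2 fold change 0.54, SE 0.15), with no overlap for either gene. Ndufb4 lost its call without cortex replicate 1. Ndufb6 and Ndufc2 were the others called higher, at 123 ± 20.2 and 123 ± 16.1 in control tumours, against 89.00 ± 12.7 and 97.8 ± 6.91 in cortex (SD, n = 3 each).

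The largest fall in complex I was at its core. Ndufs1 (chromosome 1, 63143596 to 63176833, minus strand), the biggest iron-sulfur subunit of the arm that takes up NADH, stood at 91.8, 82.6 and 95.1 in control tumours and 149.6, 160.2 and 139 in cortex. The groups were well apart, and the level was 1.61-fold lower (log2 fold change -0.69, SE 0.11, adjusted p = 0.000607, limma). Ndufv1, which binds NADH and the flavin, read 119.7, 105 and 126 in control tumours against 163, 172 and 197 in cortex (log2 fold change -0.56, SE 0.12). Ndufs3, a core subunit of the part that hands electrons to coenzyme Q, was lower by less, at 99.1, 89.7 and 104 in control tumours and 116, 131 and 124 in cortex (log2 fold change -0.29, SE 0.11). It lost its call under total-read scaling, with edgeR and DESeq2, and when any library other than control replicate 3 was left out. Ndufs7, Ndufs8 and Ndufv2, core subunits too, did not pass, at 70.6 ± 15.3, 90.9 ± 8.70 and 149 ± 16.7 in control tumours and 87.6 ± 13.05, 102 ± 12.5 and 166 ± 10.6 in cortex. Ndufb8, a membrane arm subunit, fell as well (159, 120.3 and 138 in control tumours, 184, 222 and 217 in cortex, log2 fold change -0.54, SE 0.14).

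Of the 7 assembly factors of complex I, 4 fell and 0 rose, against 36.2% and 35.7% of all genes tested. Ndufaf5, which modifies the core subunit Ndufs7, had 16.1, 14.3 and 14.98 in control tumours and 33.9, 37.7 and 40.2 in cortex. No library of one group reached the other, and it was 2.37-fold lower (log2 fold change -1.24, SE 0.14, adjusted p = 6.82e-05, limma). Ndufaf4 stood at 23.1 ± 3.07 in control tumours and 40.5 ± 0.991 in cortex, Ndufaf3 at 23.3 ± 5.28 in control tumours and 37.7 ± 5.79 in cortex, and Ndufaf7, a methyltransferase, at 22.1 ± 2.41 in control tumours and 34.9 ± 2.63 in cortex (SD, n = 3 each), and all 3 were called lower. Ndufaf3 was not called under total-read scaling or without cortex replicate 3.

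Complex II, succinate dehydrogenase, split between its subunits. Sdha (chromosome 13, 74322254 to 74350280, minus strand), the flavoprotein that oxidises succinate, stood at 216, 227 and 279 in control tumours and 417, 442 and 415 in cortex. Each control tumour lay below each cortex library, and the level was 1.72-fold lower (log2 fold change -0.78, SE 0.12, adjusted p = 0.000492, limma). Its partner Sdhb, the iron-sulfur subunit, read 207, 169 and 162 in control tumours against 138, 149 and 162 in cortex, with a control tumour library at the level of the highest cortex library. Sdhb did not pass (log2 fold change 0.31, SE 0.13, adjusted p = 0.056, limma), but was called higher by DESeq2, under TMM and total-read scaling, and without control replicate 3. The membrane anchors Sdhc and Sdhd averaged 131 ± 19.00 and 142 ± 14.6 in control tumours, 122 ± 10.6 and 126 ± 1.93 in cortex, and did not pass either.

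In complex III, 4 of 8 subunits fell and 0 rose, against 36.2% and 35.7% of all genes tested. Uqcrc2 (chromosome 7, 120635176 to 120659524, plus strand), a core protein, had 104, 141 and 183 in control tumours and 250.5, 271 and 249.8 in cortex (log2 fold change -0.84, SE 0.19, adjusted p = 0.00412, limma). The control tumours were spread widely but all lay below cortex, and without control replicate 1, the lowest, the log2 fold change was -0.63. Uqcrfs1, the Rieske iron-sulfur protein, read 104, 101 and 114 in control tumours against 146, 184 and 160.01 in cortex (log2 fold change -0.56, SE 0.12). Uqcr11 fell to 145 ± 23.3 in control tumours, against 219 ± 31.2 in cortex, and Uqcrc1, the other core protein, to 195 ± 23.9 in control tumours against 267 ± 17.1 in cortex, though neither was called under total-read scaling or without cortex replicate 3, nor Uqcrc1 without cortex replicate 2.

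Complex IV held the widest single differences of the set. Of its 16 tested genes, 2 rose (12.5%) and 5 fell (31.25%), both shares below the 35.7% and 36.2% of all genes tested, and the median log2 fold change was -0.11. Cox7b (chromosome X, 106015700 to 106022450, plus strand), a small subunit encoded on the X chromosome, stood at 161, 165 and 173 in control tumours and 429, 536 and 498 in cortex. Each control tumour library lay below each cortex library, and the level was 2.82-fold lower (log2 fold change -1.50, SE 0.11, adjusted p = 7.08e-06, limma). Cox8a (chromosome 19, 7215153 to 7217616, minus strand), the common form of the smallest subunit, read 307, 231 and 291 in control tumours against 509, 602 and 645 in cortex and was 2.05-fold lower (log2 fold change -1.04, SE 0.14, adjusted p = 0.000224, limma). Cox4i1 had 572, 442 and 470.04 in control tumours and 633, 785 and 765 in cortex (log2 fold change -0.51, SE 0.13), and Cox6b1 had 179.6, 217 and 239 in control tumours and 283, 326 and 349 in cortex (log2 fold change -0.55, SE 0.14), both with no overlap. Cox5a, Cox5b, Cox6c, Cox7a2 and Cox7c did not pass, with means of 131 ± 13.3, 191 ± 44.8, 343 ± 26.3, 227 ± 25.6 and 266 ± 18.3 in control tumours and 160.02 ± 20.2, 209.9 ± 7.94, 371 ± 37.4, 251 ± 24.3 and 274 ± 27.9 in cortex (SD, n = 3 each).

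**Figure D2:**
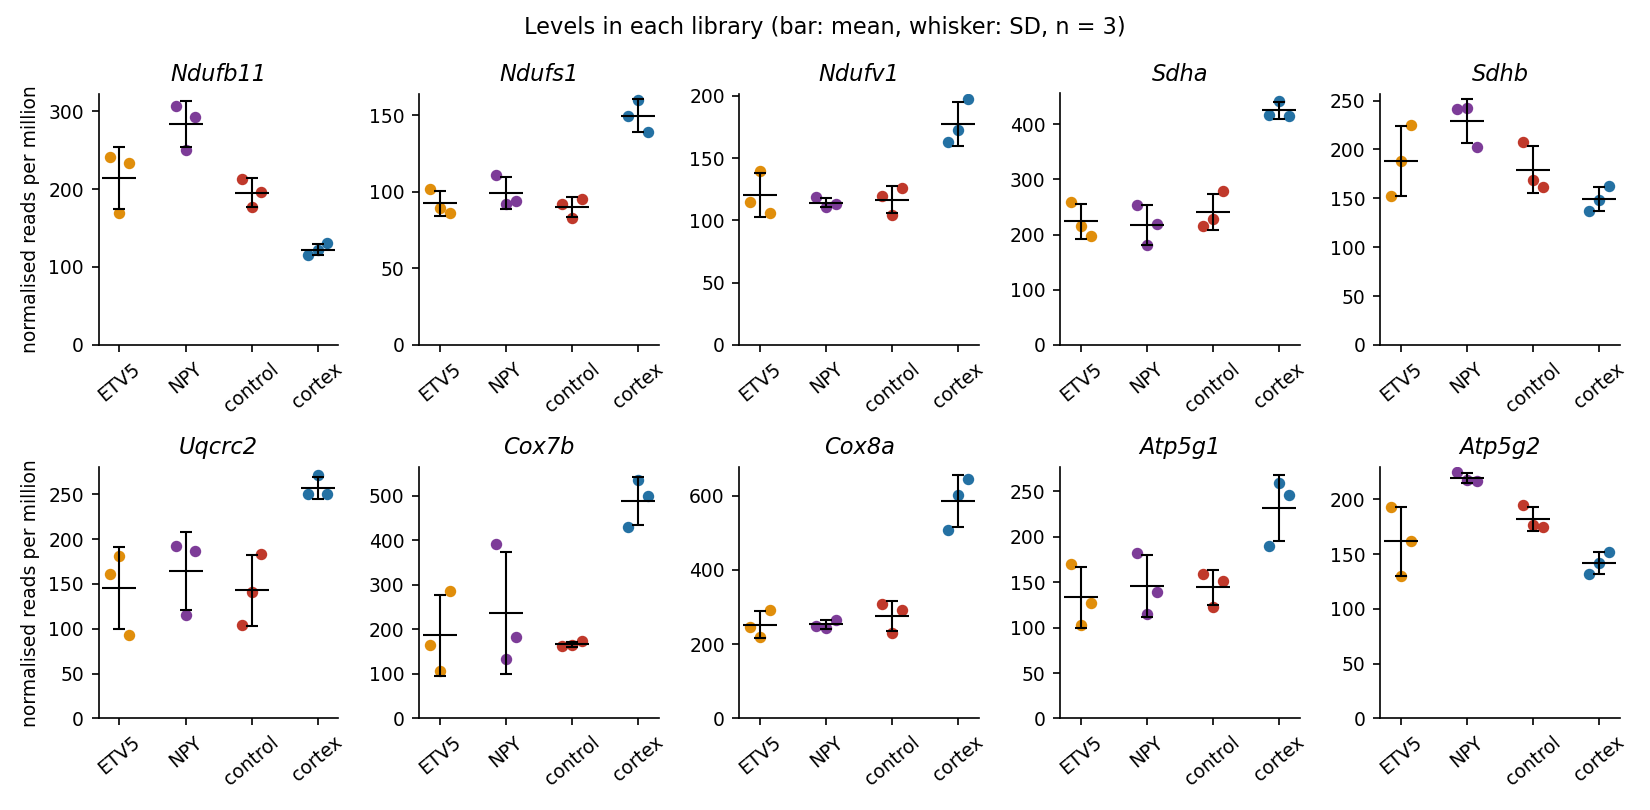
Level of 10 genes in each library, as normalised RPM (y axis, from 0), for ETV5 tumours, NPY tumours, control tumours and cortex (x axis), with points for libraries, bars for means and whiskers for SD (n = 3). Sdha, Cox8a and Ndufs1 are lower in each tumour library than in each cortex library, Ndufb11 is higher, and Cox7b reaches 391 in NPY replicate 1.

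Tissue forms of complex IV were measured on few reads. Cox7a1, known as the form of heart and skeletal muscle, had 4.05, 3.03 and 5.96 normalised RPM in control tumours and 0.731, 1.72 and 1.83 in cortex, from 109 and 26 reads (log2 fold change 1.61, SE 0.44, adjusted p = 0.0104, limma). Ndufa4l2 had 3.55, 3.14 and 3.20 in control tumours and 1.17, 2.49 and 1.68 in cortex (log2 fold change 0.95, SE 0.36), a call lost with DESeq2, without a filter, and when any library other than cortex replicate 2 was left out. Cox6a2 had 0.507, 1.84 and 1.16 in control tumours and 2.19, 4.98 and 2.90 in cortex (log2 fold change -1.44, SE 0.52), a call lost without control replicate 1 or cortex replicate 2 or 3. Cox6b2 and Cox4i2, a form known from lung, averaged 5.31 ± 2.23 and 3.79 ± 1.13 in control tumours and 3.67 ± 0.368 and 2.36 ± 0.564 in cortex, and did not pass. Per kilobase, Cox7a1 made up 1.91, 1.75 and 3.30% of the summed level of Cox7a1 and Cox7a2 in control tumours and 0.396, 0.766 and 0.889% in cortex. Of 12 markers of pericytes and smooth muscle, 8 were called higher and 1 lower, against 35.7% and 36.2% of all genes tested. None was at 0 in either group, and their summed level was 436 to 558 in control tumours and 189 to 214 in cortex. Of 16 muscle genes, 9 passed the filter, of which 2 (Tnnt3 and Ttn) were higher and 7 lower, with sums of 365 to 466 in control tumours and 40.2 to 53.9 in cortex, nearly all of the tumour sum from Tnnt3 at 328, 353 and 432. None of the 16 was at 0 in every library of control tumours or of cortex, and the part of these cells in the values was not tested.

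In complex V, ATP synthase, 3 of 15 subunits rose (20%) and 5 fell (33.3%), both shares below the 35.7% and 36.2% of all genes tested. The catalytic pair of the F1 head was lower: Atp5a1 (alpha) stood at 698, 676 and 739 in control tumours and 979.9, 1039.9 and 1054 in cortex, and Atp5b (beta) at 921, 881 and 884 in control tumours and 1183, 1253 and 1312 in cortex. Neither gene overlapped between groups (-0.49 and -0.43 on the log2 scale, adjusted p = 0.00157 and 0.00288, limma). Atp5d, the delta subunit, read 177, 135 and 149 in control tumours against 209, 266 and 269 in cortex (log2 fold change -0.64, SE 0.15). Its neighbour in the central stalk, Atp5e (epsilon), went the other way, at 202, 161 and 224 in control tumours and 125, 159 and 148 in cortex (log2 fold change 0.48, SE 0.15). The call on Atp5e was lost without cortex replicate 1. The same holds for Atp5j2, which also lost it without control replicate 2, a membrane subunit at 277, 272 and 242 in control tumours and 181, 227 and 221 in cortex.

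The c subunit, which forms the rotating ring, is made from 3 genes that encode the same mature protein. Atp5g1 (chromosome 11, 96068852 to 96075670, minus strand) fell to 159, 122 and 152 in control tumours, against 189.98, 259.5 and 246 in cortex (log2 fold change -0.63, SE 0.16, adjusted p = 0.00601, limma). Atp5g2 rose to 195, 176 and 175 in control tumours, against 132, 142 and 152 in cortex (log2 fold change 0.41, SE 0.11, adjusted p = 0.00737, limma), and Atp5g3 had 353, 320.04 and 339 in control tumours and 272, 295 and 317 in cortex and did not pass. Levels per kilobase divide by the merged exons of all basic coding transcripts of a gene. On that scale Atp5g1 held 3.94% ± 0.364 of the summed c subunit level in control tumours and 7.26% ± 0.785 in cortex. Atp5g2 held 33.4% ± 0.903 in control tumours and 29.95% ± 0.301 in cortex, and Atp5g3 held 62.6% ± 0.717 in control tumours and 62.8% ± 0.511 in cortex (SD, n = 3 each). Not divided by length, Atp5g1 averaged 144 normalised RPM in control tumours and 232 in cortex, beside 182 and 142 for Atp5g2 and 338 and 295 for Atp5g3. The size of the Atp5g1 share therefore depends on the length used, and it is not a share of transcripts. Atp5g3 was the highest of the 3 in both tissues on both scales, and the shares of Atp5g1 per kilobase did not overlap. Atp5g2 has 2 near-identical genes elsewhere in the genome, so its reads are uncertain.

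Outside the complexes, Cox7a2l, which joins complexes III and IV, fell to 151, 148 and 154 in control tumours, against 204, 229 and 216 in cortex (log2 fold change -0.47, SE 0.10), and Atp5s to 9.83, 11.9 and 14.2 in control tumours against 21.8, 20.1 and 22.1 in cortex. Other mitochondrial gene lists were counted on the same fit, in which 35.7% of all genes tested were called higher and 36.2% lower. Of 18 enzymes of the TCA cycle and pyruvate entry, 14 fell and 1 rose. Of 77 mitochondrial ribosomal proteins, which translate the subunits of mitochondrial DNA, 20 rose (26.0%) and 5 fell (6.49%), both shares below those of all genes. Assembly factors outside the symbol rule counted 5 higher and 15 lower of 39 tested, electron carriers and coenzyme Q synthesis 3 and 5 of 14, and regulators of mitochondrial biogenesis 6 and 4 of 14. Ppargc1a, the PGC-1alpha coactivator of mitochondrial genes, stood at 9.63, 11.3 and 18.03 in control tumours and 47.6, 50.1 and 44.3 in cortex. The medians of these 5 lists were -0.63, 0.14, -0.28, -0.30 and 0.33, beside -0.19 for the 88 genes.

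Cell type markers moved with these counts, and over all genes tested 35.7% were called higher and 36.2% lower. All 12 pan-neuronal genes were lower in control tumours, with summed levels of 689.96, 688 and 1324 in control tumours and 9106, 10306 and 9401 in cortex, and none at 0. All 8 oligodendrocyte genes were lower (1908 to 3829 in control tumours, 16949 to 20543 in cortex), 11 of 12 microglia and macrophage genes were higher (3535 to 7831 in control tumours and 592 to 707 in cortex), and all 8 proliferation genes were higher (709.9 to 1065 in control tumours and 78.5 to 89.8 in cortex), with none at 0 in either group. Astrocyte genes counted 1 higher and 5 lower of 7, endothelial genes 5 and 0 of 6, and hypoxia response genes 4 and 2 of 9. Of the 3 genes followed for RNA make-up, Malat1 had 156, 143 and 148 in control tumours and 409, 355 and 447 in cortex, Lars2 had 175, 223 and 259 in control tumours and 408, 939 and 386 in cortex, and Rn45s had 721, 608 and 687 in control tumours and 799.7, 4499 and 802 in cortex. The first 2 were called lower (adjusted p = 1.16e-05 and 0.00801, limma), Rn45s was not, and no library overlapped for any of them. Their part in the values above was not tested.

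ETV5 tumours were also set against cortex, with the same cortex libraries as above, so that both comparisons share them. Of 88 genes, 3 were higher and 31 lower, against 31.8% and 32% of 14493 genes called higher and lower. Every ETV5 library stood above every cortex library for 5 genes and below it for 44, against 35.5% and 37.2% of all genes. The 3 that rose were all accessory subunits of complex I. Ndufb11 had 241, 169 and 233 in ETV5 tumours and 115, 122 and 130.2 in cortex (log2 fold change 0.83, SE 0.16, adjusted p = 0.0041, limma), Ndufa2 had 165, 127 and 146 in ETV5 tumours and 97.5, 107 and 110.4 in cortex (log2 fold change 0.51, SE 0.13), and Ndufb6 had 118, 115 and 174 in ETV5 tumours and 74.4, 97.8 and 94.8 in cortex (log2 fold change 0.63, SE 0.21). For each of them the groups did not overlap, but Ndufa2 lost its call without cortex replicate 1, and Ndufb6 without ETV5 replicate 3 or any cortex library.

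Among those that fell, Cox8a stood at 246, 219 and 291 in ETV5 tumours and 509, 602 and 645 in cortex (log2 fold change -1.18, SE 0.15, adjusted p = 0.000736, limma). Sdha read 258, 215 and 198 in ETV5 tumours against 417, 442 and 415 in cortex (log2 fold change -0.90, SE 0.13, adjusted p = 0.00111, limma). Cox7b was spread more widely, at 165, 107 and 286 in ETV5 tumours and 429, 536 and 498 in cortex (log2 fold change -1.46, SE 0.34), and still lay below cortex in each library. Ndufa5, an accessory subunit of the arm that takes up NADH, had 48.2, 44.2 and 44.99 in ETV5 tumours and 73.4, 92.8 and 82.6 in cortex (log2 fold change -0.81, SE 0.14, adjusted p = 0.00206, limma). By complex, 3 rose and 10 fell of 35 in complex I, 0 and 1 of 4 in complex II, 0 and 4 of 8 in complex III, 0 and 4 of 16 in complex IV, 0 and 6 of 15 in complex V, and 0 and 4 of 7 among complex I assembly factors. The background for these counts and for the gene lists below is 31.8% of all genes called higher and 32% lower. Total-read scaling gave 10 higher and 14 lower, with 33 positive and 55 negative values and the median of all genes moved to 0.19, and 3 higher and 14 lower were called by all 5 fits named above. A fit with the replicate number as a block gave 18 lower. Without cortex replicate 2, or without cortex replicate 3, 14 were lower, without ETV5 replicate 2, 7 were higher, and without cortex replicate 1, 1 was higher. All 12 pan-neuronal genes were lower here too, with sums of 255, 891 and 438 in ETV5 tumours and 9106, 10306 and 9401 in cortex, 12 of 18 TCA cycle and pyruvate enzymes fell and 1 rose, and 16 of 77 mitochondrial ribosomal proteins rose and 6 fell; the part of other cells was not tested.

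ETV5 tumours were set against control tumours for the effect of the added gene. Limma called 0 of 88 members higher and 0 lower, as 0% and 0% of 14382 genes were, with 0 members and 944 genes at an unadjusted p under 0.05. EdgeR called 0 genes, and DESeq2 called 76, of which 0 were members. In ETV5 tumours 30 members had positive and 58 negative values, with a median log2 fold change of -0.05, and -0.02 over all genes. This split moved with the processing and with 1 library. It was 40 and 48 under TMM scaling and 39 and 49 with edgeR. Without ETV5 replicate 2 it was 44 and 44, with a median of 0.001. The counts by complex are from the main fit only. By complex, 13 of 35 values were positive in complex I, 2 of 4 in complex II, 1 of 8 in complex III, 2 of 16 in complex IV and 5 of 15 in complex V. Every ETV5 library lay above every control library for 1 member (Atp5b) and below it for 5 (Atp5k, Ndufa12, Ndufa5, Ndufa9 and Ndufv3), against 6.8% and 7.25% of all genes.

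The 5 members with the lowest p-values were small or accessory subunits. Atp5k, the e subunit in the membrane part of ATP synthase, stood at 86.8, 69.5 and 89.97 in ETV5 tumours and 110.1, 101 and 97.1 in control tumours, all ETV5 libraries below (log2 fold change -0.34, SE 0.15, adjusted p = 0.732, limma). Ndufa5 had 48.2, 44.2 and 44.99 in ETV5 tumours and 56.4, 52.9 and 56.7 in control tumours (log2 fold change -0.28, SE 0.13), also with no overlap. Ndufv3, of the NADH-binding arm, had 84.1, 95.2 and 100.1 in ETV5 tumours and 108, 104 and 129 in control tumours (log2 fold change -0.30, SE 0.16). Cox6c, of complex IV, read 368, 177 and 228 in ETV5 tumours against 343, 316 and 369 in control tumours (log2 fold change -0.49, SE 0.27), and Ndufa1, of the membrane arm of complex I, 73.99, 46.6 and 63.2 in ETV5 tumours against 83.8, 66.5 and 80.4 in control tumours (log2 fold change -0.36, SE 0.21). For both, ETV5 replicate 2 was the lowest library and the groups overlapped.

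The members were also described by the ETS letters of their promoter. The 17 with the letters ranged from -0.34 to 0.11 with a median of -0.10, 5 of them positive, and the 56 without ranged from -0.72 to 0.42 with a median of -0.04, 20 of them positive. Of the promoters printed above, Ndufb6 had 118, 115 and 174 in ETV5 tumours and 146, 108 and 116 in control tumours, Uqcr11 had 138, 103 and 137 in ETV5 tumours and 169, 123 and 144 in control tumours, and Cox6a1 had 495, 328 and 484 in ETV5 tumours and 522, 496 and 436 in control tumours. For each of these 3 the groups overlapped. Of the marker lists, all 12 pan-neuronal, 7 astrocyte, 8 oligodendrocyte and 6 endothelial genes had negative values. So did 11 of 12 microglia and macrophage genes and 11 of 12 of pericytes and smooth muscle. All 8 proliferation genes, 8 of 9 hypoxia response genes and 2 of 3 RNA make-up genes were positive, with 0 called in any list. The pan-neuronal sums were 255, 891 and 438 in ETV5 tumours and 689.96, 688 and 1324 in control tumours. Microglia and macrophage sums were 1992, 2694 and 3647 in ETV5 tumours and 7831, 5655 and 3535 in control tumours. RNA make-up sums were 1756, 1409 and 6295 in ETV5 tumours and 1053, 975 and 1093 in control tumours. Their part in the values was not tested.

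NPY tumours were compared with control tumours in the same fit design, sharing the control libraries with the ETV5 comparison. Limma called 0 members higher and 0 lower, while 0.728% of 14425 genes were higher and 4.31% lower. These counts over all genes fell to between 0 and 69 higher and between 1 and 502 lower when 1 library was left out, the lowest without control replicate 2. EdgeR called 0 members, DESeq2 called 4 higher (Ndufs4, Ndufb8, Ndufb11 and Cox7a2), a share of 88 near the 4.2% of all genes that it called higher. In limma 13 members had an unadjusted p under 0.05, as did 23.5% of all genes. The values were mostly above 0: 71 members were positive and 17 negative, with a median log2 fold change of 0.14, against 0.04 over all genes, and under total-read scaling 57 were positive and 31 negative with a median of 0.06, against -0.05 over all genes. Every NPY library lay above every control library for 22 members and below it for 1 (Ndufv3), against 13.6% and 17% of all genes. By complex, 28 of 35 values were positive in complex I, 3 of 4 in complex II, 7 of 8 in complex III, 11 of 16 in complex IV and 14 of 15 in complex V.

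Ndufs4, an accessory subunit of the electron-entry arm of complex I, stood at 169.6, 195 and 171 in NPY tumours and 139, 103 and 108 in control tumours, without overlap (log2 fold change 0.65, SE 0.16, adjusted p = 0.0652, limma). Ndufb8 had 189, 212 and 266 in NPY tumours and 159, 120.3 and 138 in control tumours (log2 fold change 0.70, SE 0.18, adjusted p = 0.0794, limma), and Ndufb11 had 307, 249.96 and 292 in NPY tumours and 213, 177 and 196 in control tumours (log2 fold change 0.56, SE 0.15, adjusted p = 0.0834, limma). All NPY libraries were above all control libraries for both. Cox7a2, the common form of its complex IV subunit, read 291, 315 and 306 in NPY tumours against 256, 209.5 and 215 in control tumours (log2 fold change 0.45, SE 0.13). Atp5c1, the gamma subunit that turns in the F1 head, read 272, 335 and 301 in NPY tumours against 255, 213 and 214 in control tumours (log2 fold change 0.44, SE 0.14, adjusted p = 0.123, limma). Ndufa9 was the one member whose libraries all lay below control in ETV5 tumours (98.2, 99.5 and 94.6) and all above it in NPY tumours (119, 124 and 117), with 114, 106 and 104 in control tumours, and the adjusted p was 0.798 with ETV5 and 0.398 with NPY (limma).

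**Figure D3:**
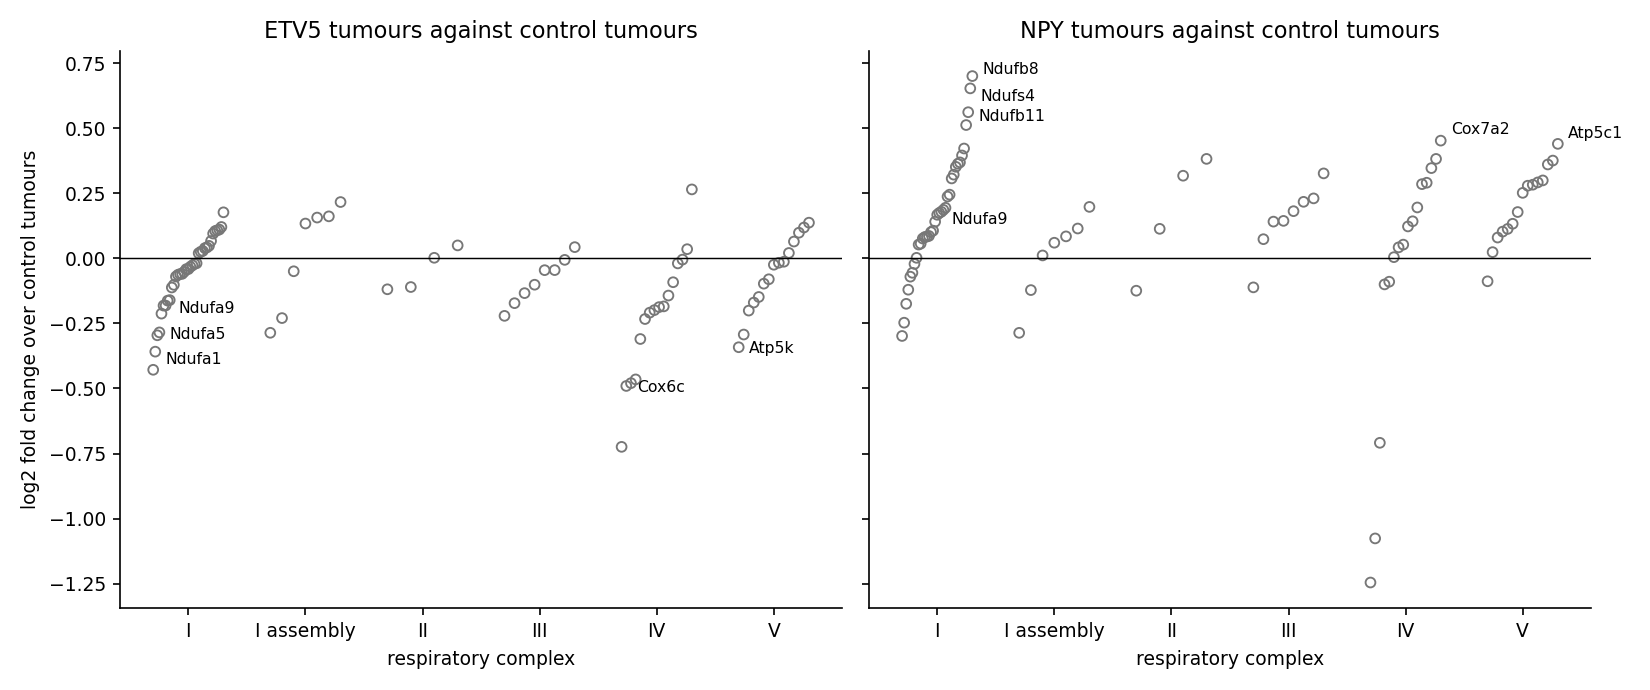
Log2 fold change of ETV5 tumours (left) and NPY tumours (right) over control tumours (y axis) for the tested genes of each complex and the complex I assembly factors (x axis). Open points are genes with an adjusted p of 0.05 or more in limma, which is every gene shown; both panels share the control libraries, and medians over all members are -0.05 and 0.14.

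Other features of the libraries moved with the NPY group, and over all genes tested 0.728% were called higher and 4.31% lower. All 12 pan-neuronal genes had negative values, of which 7 were called lower, with summed levels of 251, 133 and 246 in NPY tumours and 689.96, 688 and 1324 in control tumours and none at 0. All 7 astrocyte and all 8 oligodendrocyte genes were negative too, 2 and 1 of them called, with sums of 487 to 1778 and 631 to 1654 in NPY tumours and 3530.5 to 4257 and 1908 to 3829 in control tumours. All 8 proliferation genes were positive, 2 of them called (1317 to 1913 in NPY tumours, 709.9 to 1065 in control tumours), as were 72 of 77 mitochondrial ribosomal proteins, of which 0 were called higher and 1 lower. Reads on the ribosomal RNA precursor Rn45s came to 1427, 4453 and 5695 in NPY tumours and 721, 608 and 687 in control tumours (adjusted p = 0.0491, limma). Lars2, a further gene followed for RNA make-up, was also higher, at 435, 655 and 781 in NPY tumours and 175, 223 and 259 in control tumours (adjusted p = 0.0292, limma), and the nuclear RNA Malat1 was lower, at 44.8, 67.2 and 53.6 in NPY tumours and 156, 143 and 148 in control tumours (adjusted p = 0.0137, limma). The library names of NPY tumours and of ETV5 replicate 3 end in a code with the letters EC, and those of the other 8 libraries in a code with DS. The NPY group and whatever that code stands for therefore cannot be told apart, and the part of the marker genes was not tested.

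Summed over the subunits of a complex, levels are set side by side for all groups without a test, since NPY tumours and cortex stand in separately normalised tables. The 82 subunit genes together came to 13709, 11297 and 13148 normalised RPM in ETV5 tumours, 15529.6, 13799 and 15394 in NPY tumours, 14028, 12138 and 13311 in control tumours and 14470.3, 16764 and 16673 in cortex. On this scale NPY tumours lay between the other tumours and cortex on average, with libraries that overlap control tumours and cortex. The highest ETV5 library, at 13709, lay just below the lowest NPY library, at 13799. On plain library totals the order of NPY tumours and cortex turned, with means of 13365 ± 1220 CPM in ETV5 tumours, 15094 ± 1362 in NPY tumours, 13867 ± 1329 in control tumours and 14398 ± 984 in cortex (SD, n = 3 each). For complex IV the sums were 3111, 2223 and 3098 in ETV5 tumours, 3657, 3202 and 3582 in NPY tumours, 3404, 2934 and 3098 in control tumours and 3720.1, 4508 and 4401 in cortex, so that each tumour library was below each cortex library on this scale. On plain library totals that separation was lost, since NPY replicates 1 and 3 and control replicate 1, at 3744, 3691 and 3557 CPM, stood above cortex replicate 1 at 3419. For complex V they were 4753, 3993 and 4405 in ETV5 tumours, 5202, 4876 and 5107 in NPY tumours, 4564, 4117 and 4396 in control tumours and 4771, 5429.7 and 5421 in cortex, and NPY libraries overlapped cortex. Complex I assembly factors summed to 117 to 133 in ETV5 tumours, 121 to 124 in NPY tumours, 109 to 129.7 in control tumours and 181 to 204 in cortex. On plain totals, all 92 genes came to 12539 to 14932 CPM in ETV5 tumours, 13867 to 16246 CPM in NPY tumours, 12640.1 to 14979 CPM in control tumours and 13709 to 15642 CPM in cortex, ranges that overlap for every pair of groups.

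**Figure D4:**
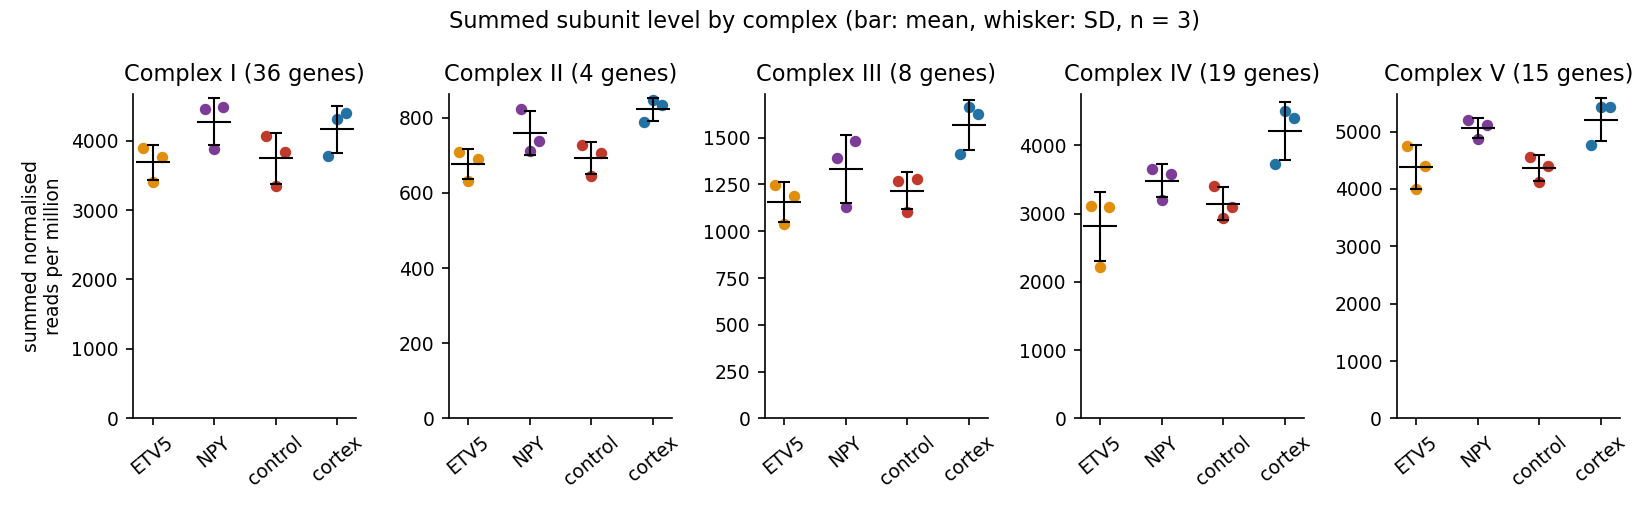
Summed level of the subunit genes of each complex in each library, as normalised RPM (y axis, from 0), for ETV5 tumours, NPY tumours, control tumours and cortex (x axis), with points for libraries, bars for means and whiskers for SD (n = 3). On this scale complex IV is lower in each tumour library than in each cortex library, with ETV5 replicate 2 lowest at 2223, but on plain library totals NPY replicates 1 and 3 and control replicate 1 stand above cortex replicate 1.

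The spread among tumours went with single libraries. Over 78 members with a mean of at least 20 normalised RPM in tumours, the highest of the 9 tumour libraries stood at a median of 1.58 times the lowest, with a range of 1.14 to 3.65, and for 13 members at more than 2 times. In cortex the same ratio over 3 libraries had a median of 1.20 and a highest value of 1.42; with 9 libraries against 3 these ratios are not on equal terms. ETV5 replicate 2 was the lowest tumour library for 35 members, control replicate 2 for 23, NPY replicate 2 for 9, ETV5 replicate 3 for 4, ETV5 replicate 1 for 3, control replicate 1 for 2, and NPY replicates 1 and 3 for 1 each. In ETV5 replicate 2, 36 members with exons under 1000 bases stood at a median of -0.39 on the log2 scale relative to the median tumour library, and 46 longer members at -0.07, while 417 short genes of all kinds stood at -0.17. Cox7b had the widest ratio: it stood at 165, 107 and 286 in ETV5 tumours, 391, 134 and 183 in NPY tumours and 161, 165 and 173 in control tumours.

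Members on chromosome 7 shared a pattern across libraries, which was chosen for description after the values were seen. Uqcrc2, Cox6b1, Ndufa3, Ndufc2, Ndufab1 and Atp5sl, the 6 members there with at least 50 reads per tumour library on average, were low together in ETV5 replicate 3, NPY replicate 2 and control replicate 1. Relative to the median tumour library, Uqcrc2 stood at -0.79, -0.49 and -0.63 on the log2 scale in those 3 libraries, and Ndufa3, an accessory subunit of complex I, at -0.85, -1.14 and -0.23. For 2 of the 6, ETV5 replicate 2 was lower than control replicate 1: Ndufa3 stood at -0.33 there, and Cox6b1 at -0.37 in ETV5 replicate 2 and -0.27 in control replicate 1. All genes of chromosome 7 with that many reads had medians of -0.32, -0.29 and -0.23 in the same libraries, and of 0.02 to 0.12 in the other 6 tumour libraries. Over the 9 tumour libraries the medians of the other chromosomes ranged from -0.15 to 0.15, and this is across genes, which are not independent replicates. With 1 such library in each tumour group, the levels of these 6 members spread within every group, and the number of DNA copies was not measured.

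**Figure D5:**
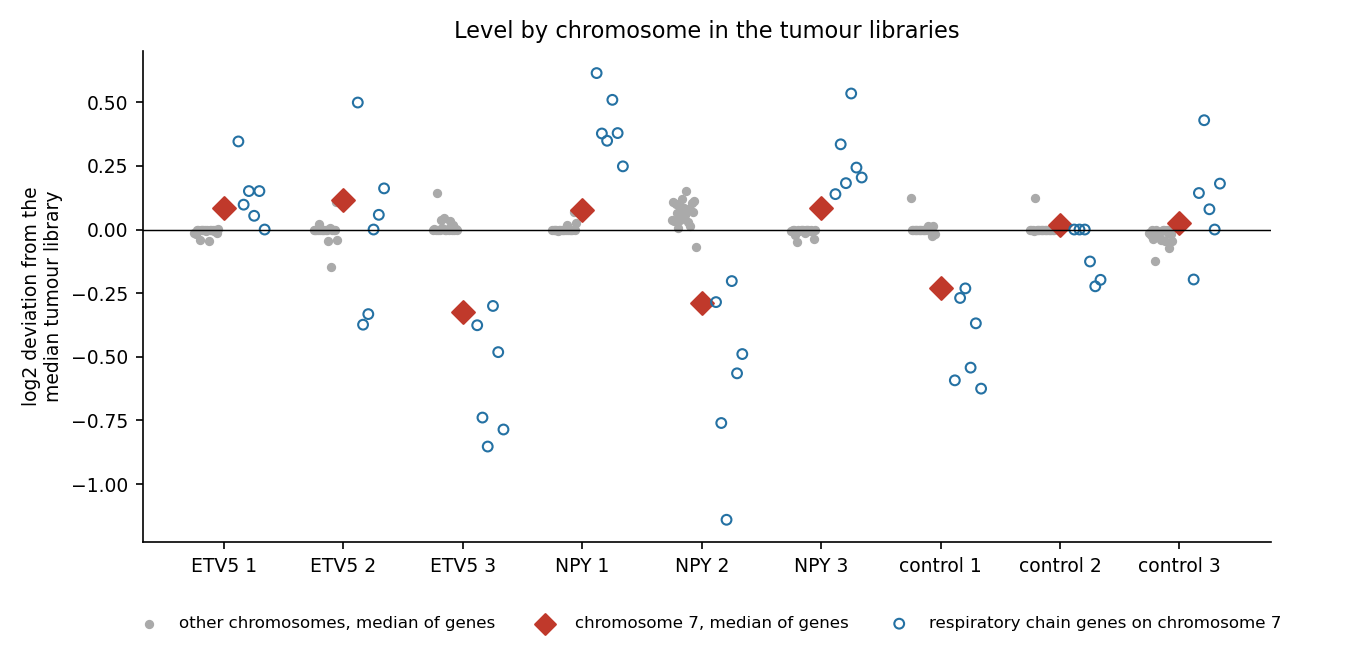
Log2 deviation from the median tumour library (y axis) in each of the 9 tumour libraries (x axis). Grey points are medians over the genes of each other chromosome, diamonds the median over chromosome 7 and open circles the 6 respiratory chain genes there; the diamonds lie at -0.32, -0.29 and -0.23 in ETV5 replicate 3, NPY replicate 2 and control replicate 1.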

How the data were processed

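PolyA RNA of 12 mouse libraries, 3 each of ETV5, NPY and control tumours and cortex, was sequenced as paired ends from a stranded kit, per the labels. Build mm10, STAR 2.5.0a, DESeq2 1.30.1, FastQC 0.11.7 and MultiQC 1.6 are listed by the submitters' processing notes, and the tool used for counting is not given in the sources used here. Deposited by the authors was a normalised signal in 2 tables: whole reads per gene divided by 1 size factor per library, set separately for each table (control tumours stand in both, with identical reads in 24421 rows). Division by the step gave whole reads for 100% of values within 0.01 read. As the values were not counts, the main test was limma 3.58.1 (trend, robust) under R 4.3.3 on log2(deposited value + 1), two-sided, group as the sole term, 2 groups per fit, genes kept by filterByExpr (about 10 reads in each of 3 libraries, 15 in all), Benjamini-Hochberg over all genes tested, called under 0.05. Fold changes are on that log2 scale. Groups and replicate numbers came from the titles. The edgeR 4.0.16 quasi-likelihood test and DESeq2 1.42.0 on recovered reads were alternatives; edgeR called 0 genes in ETV5 and 685 in NPY against control tumours. Printed levels differ from the deposited scaling by at most 4.42%. Positions and exon lengths are GENCODE M21 (mm10), found for 91 of 92 genes, near-identical transcripts were sought with blastn 2.17.0, and promoters are RefSeq. The test was tried on simulated data. The members and lists were chosen with earlier results of these data known. Named were core subunits and tissue isoforms, up to 3 called members per direction and complex with the largest change and a mean of at least 5, and the 5 lowest p-values against control tumours.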

Additional observations from a re-analysis of the deposited data

Results flagged for a closer look

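Ndufa9, an accessory subunit of complex I, stood on opposite sides of control tumours in the tumours with an added gene. Its mean level was 97.4 normalised RPM in ETV5 tumours, 120.2 in NPY tumours and 108 ± 5.34 in control tumours, and every ETV5 library lay below and every NPY library above all control libraries. Neither change passed alone, both share the control libraries, and the difference between the ETV5 and NPY changes was not tested. Ndufa9 was found by searching the members with enough reads for this pattern, and its share over all genes was not counted. Of all genes, 7.25% had every ETV5 library below control tumours, and 13.6% had every NPY library above them.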

How the results depend on the processing

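Direction was checked for 35 gene results of control tumours against cortex, 28 of ETV5 tumours against cortex, and 5 each of ETV5 and NPY against control tumours. None of these changed direction under any alternative run. Other printed values, such as Ndufb6 in ETV5 against control tumours, were not checked in this way. For ETV5 against control tumours, the median over members moved from -0.05 to 0.001 without ETV5 replicate 2. For control tumours against cortex, total-read scaling gave 19 members higher, and leaving out 1 replicate gave 4 to 11 higher and 23 to 36 lower. For ETV5 tumours against cortex, total-read scaling gave 10 higher and 14 lower, the replicate block 18 lower, and leaving out 1 replicate 1 to 7 higher and 14 to 31 lower. For NPY against control tumours, DESeq2 gave 4 higher; over all genes that comparison had 105 higher and 622 lower, 606 and 1227 with DESeq2, and 18 and 246 with the replicate block. A left-out replicate leaves fewer samples in the fit; the cause of the other shifts was not tested. Same-numbered libraries correlated at -0.39 to 0.37 across genes after group means were removed, so the numbers were not taken as pairs. Depth limits the forms of complex IV with few reads, such as Cox7a1, and intervals were not computed for them.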
